A study of Mus musculus with 3 samples.

Results

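Late granule protein and calprotectin transcripts were followed in single mouse bone marrow cells. The set holds 9 genes chosen by name, of 14721 genes in the deposited count table, and all 9 had a row: S100a8, S100a9, Lcn2, Ltf, Camp, Ngp, Hp, Chil3 and Fcnb. The cells were sorted as LSK, a marrow fraction without lineage markers but with Sca-1 and Kit, which holds stem cells and multipotent progenitors. There were 3 droplet libraries, 1 for each genotype. WT was Spop(+/+) with Myd88 (+/+), KO was Spop(D/D) with Myd88(+/+), and DKO was Spop(D/D) with Myd88(-/-). Spop encodes the substrate receptor of a cullin ubiquitin ligase, while the Myd88 product relays signals from interleukin-1 and Toll-like receptors. KO over WT asks what differs with Spop deleted, and DKO over KO what differs when Myd88 is lost as well. The labels give neither what drives the Spop deletion nor the age or number of the animals.

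Neutrophils make their granules in sequence. Azurophil granules, with elastase and myeloperoxidase, form first in promyelocytes, and specific granules, with lactoferrin and cathelicidin, form later in myelocytes and metamyelocytes. S100a8 and S100a9 encode the subunits of calprotectin, a calcium- and zinc-binding protein that fills the neutrophil cytosol.

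WT held 8147 cells, KO 4920 and DKO 8184, with 85700749, 101393024 and 109920419 unique molecular identifiers (UMIs, 1 per captured transcript) and medians of 9245, 17319 and 12404.5 UMIs per cell. Pairs of libraries shared 46 to 83 cell barcodes. Kit was detected in 52.3% to 57.5% of cells and Ly6a, which encodes Sca-1, in 47.2% to 58.7%. Levels are in CPM, the UMIs of a gene scaled to the same total in each library. Myd88 stood at 13.7 (WT), 25.8 (KO) and 4.47 (DKO). Spop stood at 70.7, 63.1 and 77.1, but tags at the 3′ end need not cover the deleted stretch, which is not given, so they do not check the Spop label. Xist was at 0.187, 0 and 1537 CPM and the Y-linked Ddx3y at 43.9, 32.2 and 0, so in both DKO comparisons sex and Myd88 genotype cannot be told apart. Each genotype has 1 library, so nothing is replicated and no test between genotypes was possible. Ranges in parentheses are 95% intervals and cover counting error only.

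S100a8 and S100a9 lie close together on chromosome 3, while Camp, Ngp and Ltf lie further apart on chromosome 9. The sequences just before the starts of S100a8, S100a9, Camp and Ngp are shown because their levels were correlated over cell clusters, as given further on. S100a8 (ENSMUSG00000056054.9, chromosome 3, 90668978 to 90670035, plus strand, GRCm38) and S100a9 (ENSMUSG00000056071.12, chromosome 3, 90692632 to 90695721, minus strand) are 22.6 kb apart. On chromosome 9 lie Camp (ENSMUSG00000038357.10, 109847379 to 109849617, minus strand), Ngp (ENSMUSG00000032484.8, 110419747 to 110423012, plus strand) and Ltf (ENSMUSG00000032496.7, 111019271 to 111042767, plus strand). Camp and Ngp are 570.1 kb apart, and Ngp and Ltf 596.3 kb. The sequences are from RefSeq on GRCm38.p6, written 5′ to 3′ on the strand of the gene, and end 1 base before the annotated gene. In the order S100a8, S100a9, Camp and Ngp their positions are chr3:90668821-90668977 (plus), chr3:90695722-90695921 (minus), chr9:109849618-109849706 (minus) and chr9:110419558-110419746 (plus). Capitals mark the letters TTNNGNAA on either strand, a core of the sites that C/EBP factors, regulators of granulocyte genes, are known to bind.
S100a8: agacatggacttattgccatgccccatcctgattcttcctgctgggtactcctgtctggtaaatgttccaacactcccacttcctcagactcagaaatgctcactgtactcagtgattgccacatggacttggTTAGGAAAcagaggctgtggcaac
S100a9: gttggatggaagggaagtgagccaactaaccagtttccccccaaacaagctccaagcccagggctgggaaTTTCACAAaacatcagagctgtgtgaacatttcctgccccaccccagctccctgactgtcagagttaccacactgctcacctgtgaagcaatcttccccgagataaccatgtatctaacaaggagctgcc
Camp: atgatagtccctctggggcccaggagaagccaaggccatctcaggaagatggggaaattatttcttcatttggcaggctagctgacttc
Ngp: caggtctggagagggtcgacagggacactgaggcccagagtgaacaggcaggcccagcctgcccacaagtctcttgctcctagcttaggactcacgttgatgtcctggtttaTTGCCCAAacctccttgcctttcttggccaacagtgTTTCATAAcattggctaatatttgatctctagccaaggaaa
Of the 8 genes with an entry, 7 held this core at least once in the 250 bases before the RefSeq start, against 36.9% of 32851 windows of that length. Ngp and Chil3 held 3 each, S100a9, Ltf and Fcnb 2 each, and S100a8 and Lcn2 1 each. Camp held none, which says only that these letters are not in its window. An NF-kB core, GGG and CC with any 5 bases between, searched on both strands, was found in 3 of the 8, namely Lcn2, Ltf and Chil3, against 45.8% of windows. A match describes the letters and was not tested as a binding site.

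Calprotectin transcripts were higher in KO than in either other library. WT had S100a8 at 47.5 CPM, KO at 214 and DKO at 64.6. For S100a9 the levels were 42.0, 150 and 43.9. The KO level was 4.51-fold that of WT for S100a8 (4.37 to 4.67) and 3.58-fold for S100a9 (3.45 to 3.71). DKO lay 3.32-fold below KO for S100a8 (3.23 to 3.41) and 3.42-fold below for S100a9 (3.31 to 3.53). The intervals of the 3 libraries did not overlap for S100a8, whereas those of S100a9 in WT (40.6 to 43.3) and DKO (42.7 to 45.2) did.

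Hp and Lcn2 had the widest range between genotypes. Hp (ENSMUSG00000031722.10, chromosome 8, 109575128 to 109579172, minus strand) encodes haptoglobin, which binds free haemoglobin, and Lcn2 (ENSMUSG00000026822.14, chromosome 2, 32384633 to 32388252, minus strand) encodes lipocalin 2, which withholds iron by binding bacterial siderophores. The Hp level was 4.22 CPM for WT, 151 for KO and 21.8 for DKO. Lcn2 was at 3.40, 88.0 and 6.37. KO was high for both, and no 2 libraries had overlapping intervals. Beside KO/WT ratios of 35.8 for Hp and 25.9 for Lcn2, DKO remained above WT, by 5.17-fold for Hp (4.62 to 5.79) and 1.88-fold for Lcn2 (1.63 to 2.16).

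Camp, Ngp and Ltf differed less. Camp encodes the cathelicidin antimicrobial peptide, Ngp a cystatin-related neutrophilic granule protein, and Ltf lactoferrin, which binds iron. The Camp level was 15.8 CPM for WT, 36.3 for KO and 14.7 for DKO. Ngp was at 9.15, 25.1 and 10.8. Ltf was at 0.957, 2.45 and 1.10, from 82, 248 and 121 UMIs. KO was the highest library for all 3, at 2.29-fold WT for Camp (2.15 to 2.44), 2.74-fold for Ngp (2.53 to 2.98) and 2.56-fold for Ltf (1.98 to 3.32). The DKO/WT ratio was 0.931 for Camp (0.865 to 1.001), 1.19 for Ngp (1.08 to 1.30) and 1.15 for Ltf (0.862 to 1.54).

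The remaining genes encode sugar-binding proteins. Chil3 (ENSMUSG00000040809.10, chromosome 3, 106147554 to 106167564, minus strand) encodes a secreted chitinase-like protein, and Fcnb (ENSMUSG00000026835.15, chromosome 2, 28076378 to 28084885, minus strand) a ficolin of the lectin pathway of complement. The Chil3 level was 1.84 CPM for WT, 10.6 for KO and 7.06 for DKO, so that DKO lay 1.51-fold below KO (1.37 to 1.66) and 3.83-fold above WT (3.22 to 4.57). Its close paralogue Chil4 had no row, so Chil3 counts are uncertain where reads match both. Fcnb was at 1.28, 2.73 and 1.68, from 110, 277 and 185 UMIs. None of the 9 genes overlaps another annotated gene.

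A gene was called higher or lower at a ratio of at least 1.5-fold, and counted as measured where the mean of the pair was at least 5 CPM. In KO over WT, 7 of the 7 measured genes were higher, against 7.77% of 9046 genes, and their median log2 ratio was 2.17 against -0.08 over all genes. None was lower, against 17.1%. In DKO over KO, 7 of 7 were lower, against 6.32% of 8973 genes, with a median of -1.73 against 0.13, and 0 were higher, against 17.9%. In DKO over WT, 1 of 5 was higher, namely Hp, against 3.62% of 9205 genes, the other 4 lay within 1.5-fold, and 0 were lower, against 3.55%. These comparisons share libraries. Ltf and Fcnb were below the level minimum in each pair. In DKO over WT, Lcn2 (1.88-fold) and Chil3 (3.83-fold) were below it as well, so their ratios were not called. Over all genes, 703 were higher and 1550 lower in KO over WT, 1610 and 567 in DKO over KO, and 333 and 327 in DKO over WT. With edgeR's TMM scaling these were 1257 and 1074, 962 and 1126, and 265 and 385, and with the 50 most abundant genes left out of the total the last was 330 and 494. TMM moved the all-gene median log2 ratio to 0.08 in KO over WT and to -0.06 in DKO over KO, and under no scaling run did a called ratio of the 9 genes change direction.

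**Figure D1:**
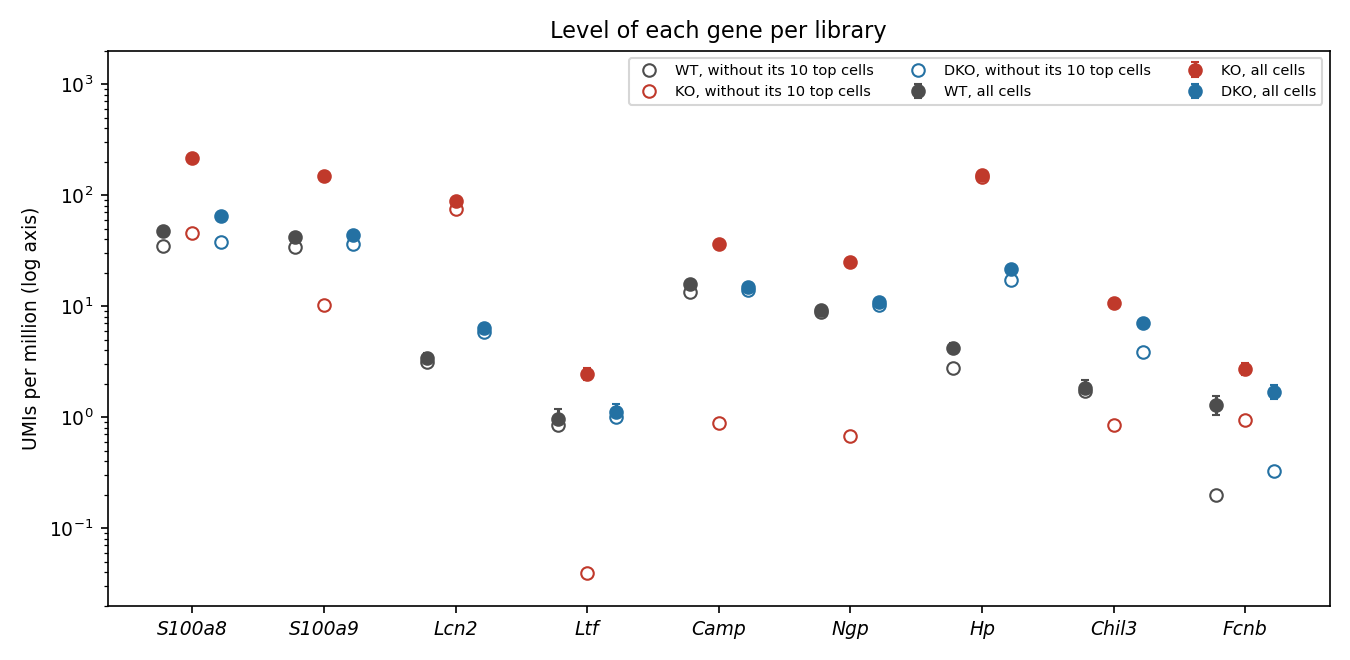
CPM (log axis) of the 9 genes in the WT, KO and DKO libraries. Filled points are all cells with 95% counting intervals, and open points leave out the 10 cells of that library with the most UMIs of the gene. Without those cells Camp in KO goes from 36.3 to 0.890, below WT at 13.5, while Hp in KO goes from 151 to 145.9.

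In such library sums, more cells of a type and more RNA per cell cannot be told apart, and the spread over cells differed widely between the genes. In KO, the 10 cells with the most Camp held 97.6% of its 3675 UMIs. The same share was 98.4% for Ltf, 97.3% for Ngp, 93.2% for S100a9, 92.0% for Chil3 and 78.8% for S100a8. For these 6 genes most of the KO total thus lay in 10 of 4920 cells. Camp UMIs were found in 98 KO cells, 86 of which held exactly 1. Hp and Lcn2 were spread over 1932 and 1544 KO cells, and their 10 highest cells held 3.93% and 15.7%.

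WT and DKO had another form for Camp and Ngp. In WT, 10 cells held 15.04% of Camp and 3.95% of Ngp UMIs, and in DKO 5.93% and 4.95%. Camp was detected in 1071 WT and 1353 DKO cells, of which 90.9% and 87.9% held a single UMI. S100a8 was detected in 28.4% of WT cells (27.4% to 29.4%), 16.2% of KO cells (15.2% to 17.2%) and 34.8% of DKO cells (33.8% to 35.8%). After each cell was thinned to 5500 UMIs, leaving out 683 WT, 0 KO and 178 DKO cells, these shares were 17.6%, 6.04% and 17.3%. The library with the highest S100a8 level was thus the one with the smallest share of cells that held any. Fcnb was concentrated in each library, with 84.6% of its WT, 65.3% of its KO and 80.5% of its DKO UMIs in 10 cells.

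**Figure D2:**
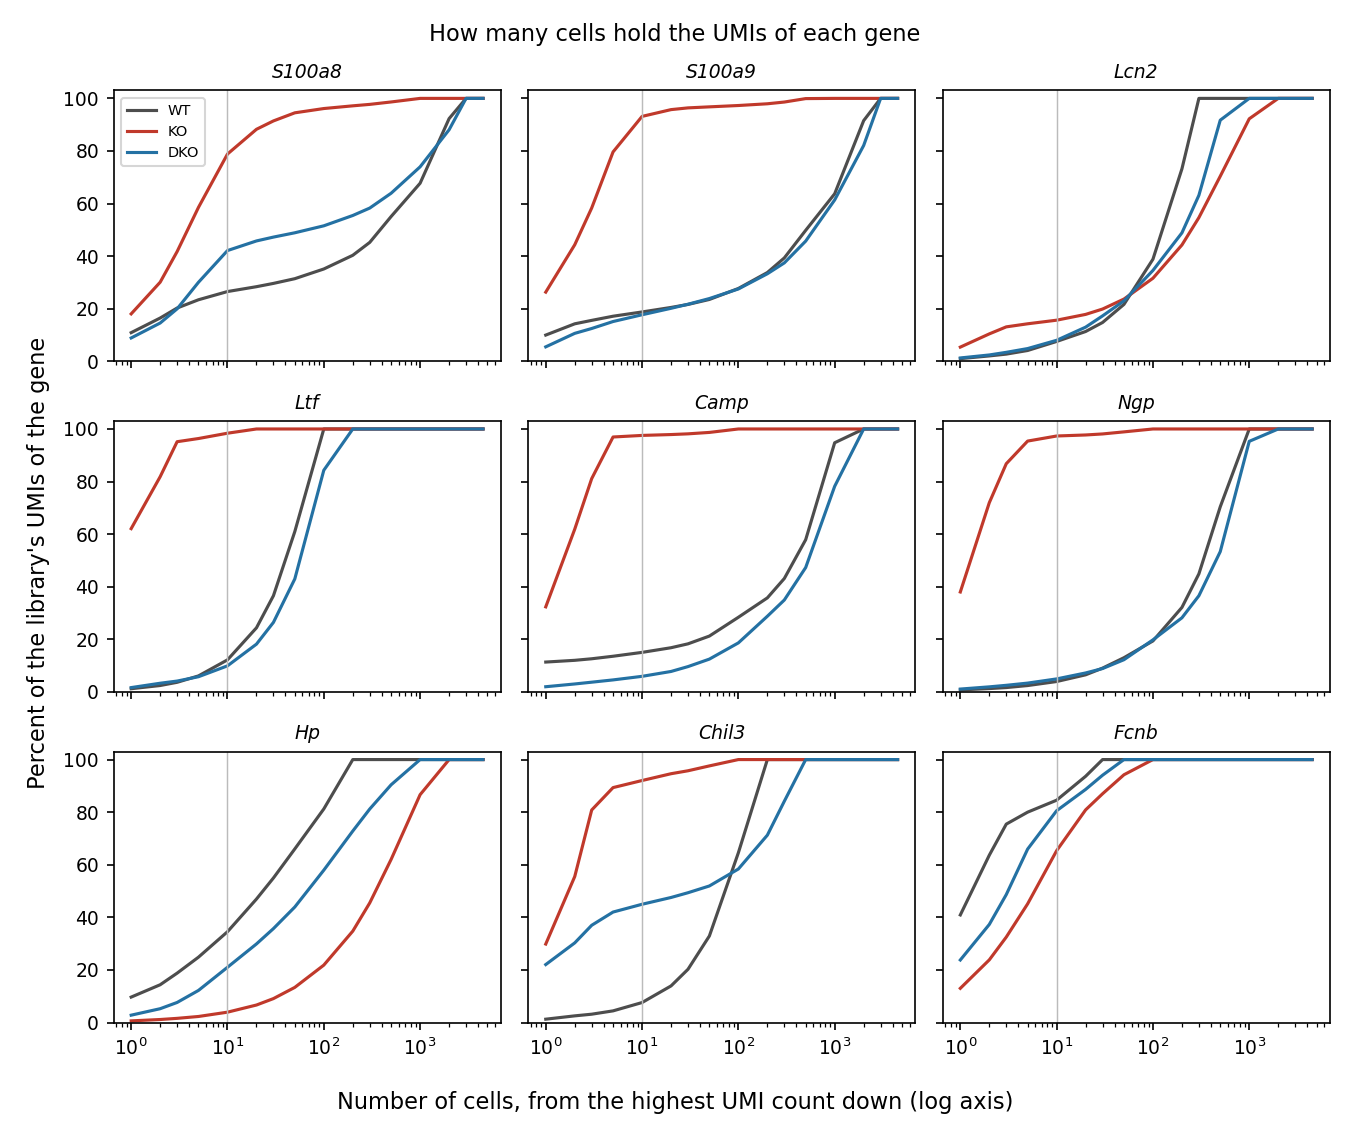
Percent of a library's UMIs of each gene held by its highest cells, counted from the top cell down (log axis), for WT, KO and DKO. The grey line marks 10 cells, where the KO curve of Camp stands at 97.6% and that of Hp at 3.93%.

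Cells of the 3 libraries were clustered together without the 9 genes, and clusters were named from marker lists that held none of them. There were 19 clusters, and 2 of them were neutrophil-progenitor-like. The larger held 27 WT, 1164 KO and 57 DKO cells, or 0.331%, 23.7% and 0.697% of each library. It was led by Ms4a3, Elane and Ly6c2, and its 15 leading genes held 3 monocyte and dendritic progenitor markers (Ly6c2, F13a1 and Ccr2) beside 7 neutrophil progenitor markers. The smaller held 8, 46 and 17 cells, or 0.0982%, 0.935% and 0.208%, and was led by Wfdc21, Elane, Ly6c2 and Cebpe. Its leading genes held 2 mature neutrophil markers, Wfdc21 and Pglyrp1, while Mmp8 and Ly6g, also on that list, were at 0 in all 71 of its cells. Ly6g had 0 UMIs in the whole KO library, so its absence there says little. Others of that list were present. Cd177 was found in 9 KO and 2 DKO cells of this cluster. Lyz2 was found in 8 WT, 42 KO and 17 DKO cells, but was widespread in each library, as given further on. The names depend on the clustering. With KO cells clustered alone, 406 cells were neutrophil-progenitor-like, a cluster of 501 cells was monocyte-dendritic-progenitor-like (6 markers, among them Ly86, F13a1 and Irf8), and a cluster of 42 cells led by Wfdc21 and Cebpe was unnamed, with 3 mature neutrophil and 3 neutrophil progenitor markers.

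The 9 genes divided between these clusters. In KO the smaller cluster held 97.6% of Camp, 97.3% of Ngp, 96.5% of S100a9, 96.4% of Ltf, 93.9% of S100a8, 92.4% of Chil3 and 88.5% of Fcnb UMIs. The larger cluster held 77.2% of Hp and 69.7% of Lcn2. In WT and DKO, most UMIs of Camp and S100a9 lay outside both clusters, at 87.0% and 97.0% for Camp and 83.5% and 82.6% for S100a9. Fcnb was mainly in the smaller cluster in each library, with 80.9% of its WT and 84.3% of its DKO UMIs there.

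**Figure D3:**
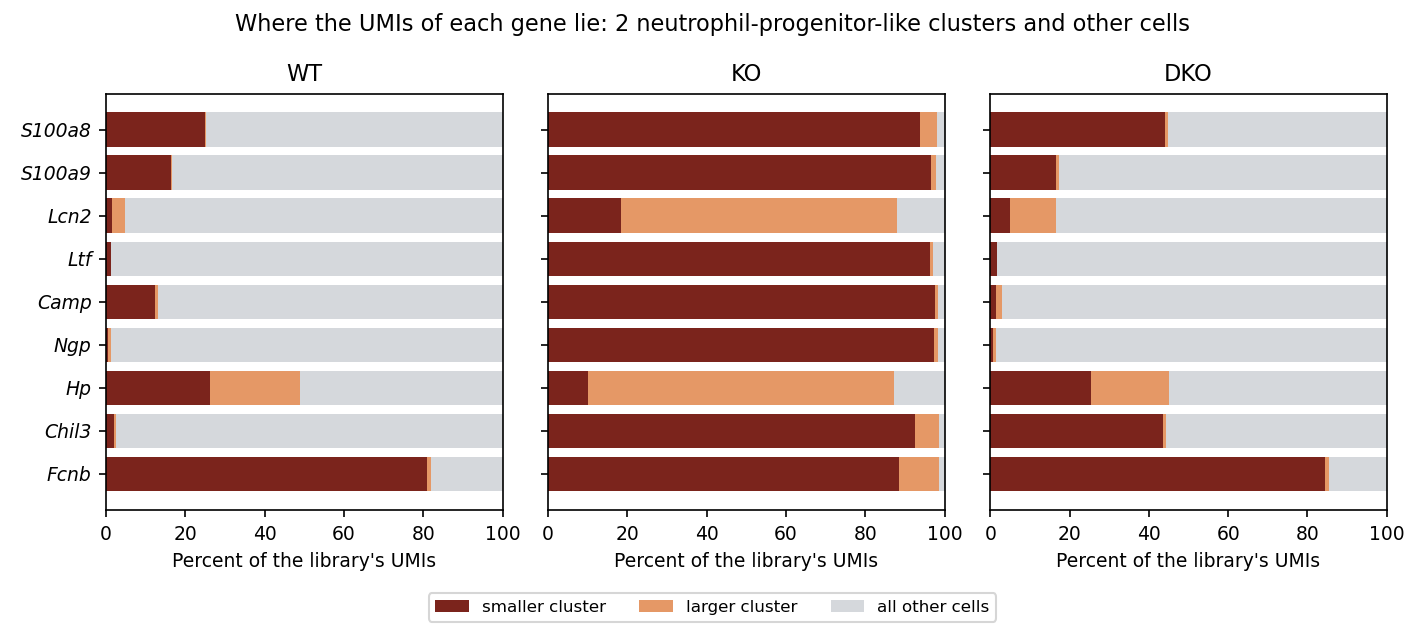
Percent of each gene's UMIs in a library (horizontal axis) that lie in the smaller neutrophil-progenitor-like cluster, the larger one and all other cells, for WT, KO and DKO. In KO the smaller cluster fills 97.6% of the Camp bar and 9.99% of the Hp bar, and in WT other cells fill 87.0% of the Camp bar.

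In the larger cluster, Hp and Lcn2 were found in most KO cells. Hp was detected in 97.2% of the 1164 KO cells (96.0% to 98.0%) with a median of 9 UMIs, and Lcn2 in 88.0% (86.0% to 89.8%) with a median of 4. In erythroid-progenitor-like KO cells, taken as background, the shares were 6.27% and 4.70%, at a median depth of 14399 UMIs against 35280.5 in the larger cluster. Thinned to 5500 UMIs, the shares in the larger cluster were 74.7% for Hp and 51.9% for Lcn2, and in erythroid-progenitor-like cells 2.47% and 1.73%, so both genes stood far above background. Both were found together in 1004 of the 1164 cells, Hp alone in 127, Lcn2 alone in 20 and neither in 13. Of the 57 DKO cells, 54 held Hp and 38 Lcn2, and of the 27 WT cells 23 held Hp and 7 held Lcn2.

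Within the larger cluster, Lcn2 was lower in DKO than in KO, while Hp lay within 1.5-fold. Hp was at 299.8 CPM in KO (294 to 305) and 359.5 in DKO (328 to 393), a DKO/KO ratio of 1.20 (1.09 to 1.31), though its median count per cell was 9 in KO and 7 in DKO, so no direction is read. Lcn2 was at 157.5 in KO and 61.2 in DKO, a ratio of 0.388 (0.308 to 0.484). The azurophil genes were higher in the DKO cells, Elane by 2.44-fold (2.39 to 2.50) and Mpo by 2.03-fold (1.98 to 2.09). Whether the mix of neutrophil and monocyte-dendritic progenitors in this cluster was the same in KO and DKO was not tested. There were 1.90 Hp UMIs per Lcn2 UMI in these KO cells (1.85 to 1.96), 5.88 in DKO (4.63 to 7.53) and 8.20 in the 27 WT cells (4.24 to 17.7). The KO interval lay apart from the other two, while those of DKO and WT overlapped. S100a8 was at 22.6 CPM in KO and 31.0 in DKO, a ratio of 1.37 (0.975 to 1.87), and S100a9 at 5.07 and 24.2, a ratio of 4.77 (3.18 to 6.95). Outside the neutrophil class S100a9 was at 5.45 in KO and 36.9 in DKO, and S100a8 at 7.28 and 36.3, so of these 4 levels S100a8 in KO alone stood above that of the other cells of its library. In KO this cluster held 4.47 S100a8 UMIs per S100a9 UMI (3.83 to 5.23), against 1.28 in DKO (0.787 to 2.10), where both genes were at or below the level of the other cells.

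Hp and Lcn2 also reached beyond the neutrophil class as drawn at resolution 1. An unnamed cluster led by Ifitm1 and Vldlr held 1774 KO, 13 WT and 13 DKO cells, and its KO cells had Hp at 56.7 CPM and Lcn2 at 30.7. Hp was detected in 35.5% and Lcn2 in 21.9% of them. They also had the highest Elane (172.4 CPM) and Mpo (443.7 CPM) of the 5 KO groups outside the class. The border between the 2 clusters depended on the clustering. At resolutions 0.6 and 1.5 the cluster led by Ifitm1 and Vldlr held 1450 and 1518 KO cells. The larger neutrophil-progenitor-like cluster then held 1486 and 1470 KO cells, against 1164 here. Whether the same cells changed cluster was not tested. An unnamed cluster led by Mcpt8 and Cpa3, genes of basophil and mast cell progenitors, held 686 WT and 1358 DKO cells. Hp there was at 9.84 CPM in WT (7.96 to 12.0) and 36.5 in DKO (34.0 to 39.0), the highest of the 12 WT and 12 DKO groups of at least 50 cells outside the neutrophil class. The DKO/WT ratio in that cluster was 3.71 for Hp (2.99 to 4.63) and 1.78 for Lcn2 (1.29 to 2.49), beside 2.24 for Elane (2.05 to 2.44).

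Hp also differed between the remaining groups of cells. It was at 12.7 CPM in DKO and 0.922 in WT in lymphoid-primed-like cells, from 58 and 9 UMIs. In an unnamed cluster led by Ly6d and Dntt it was at 2.22 (WT), 28.7 (KO) and 13.9 CPM (DKO). In megakaryocyte-progenitor-like cells it was low, at 0.779, 4.36 and 1.004, and the DKO/WT ratio of 1.29 had an interval of 0.456 to 4.47. Stem-cell-like cells held 5 Hp UMIs in WT, 5 in KO and 4 in DKO, so at this depth little can be read from them.

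Outside the neutrophil class, S100a8, S100a9, Camp, Ngp and Ltf were found in nearly every group of WT and DKO. Their ranges were wider than 1.5-fold within a library and, except for Ltf, did not overlap between KO and the other libraries. Over 12 groups of at least 50 WT cells, S100a8 ranged from 26.5 CPM in B-lineage-like cells to 51.4, and over 12 DKO groups from 28.9 to 45.7. Over 5 KO groups it ranged from 5.53 to 9.22. Camp ranged from 9.71 to 19.3 in WT, from 11.7 to 20.6 in DKO and from 0.751 to 1.15 in KO, so the KO range lay below and apart from the other two. S100a9 ranged from 26.5 in B-lineage-like to 49.8 in stem-cell-like WT cells, from 31.4 to 51.6 in DKO and from 3.46 to 6.09 in KO. Ngp ranged from 7.62 to 16.1 in WT, 7.88 to 18.3 in DKO and 0 to 1.15 in KO, and Ltf from 0 to 1.72, 0 to 1.97 and 0 to 1.15. S100a8 was detected in 30.1% of WT B-lineage-like cells (median depth 13038.5 UMIs), and in 42.2% of DKO and 10.7% of KO erythroid-progenitor-like cells (14408 and 14399), classes not known to make it. The shares over all WT and DKO cells, at depths of 9245 and 12404.5, were 28.4% and 34.8%, no higher than these. Thinned to 5500 UMIs, the share was 17.6% of all WT cells (16.7% to 18.4%) against 15.5% of B-lineage-like cells (12.7% to 18.6%) and 20.6% in the highest group, an unnamed cluster led by Gm19590 and Ltb, and 17.3% of all DKO cells against 19.0% of erythroid-progenitor-like cells. No expression is read from shares so near those of these classes, and their source was not tested.

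**Figure D4:**
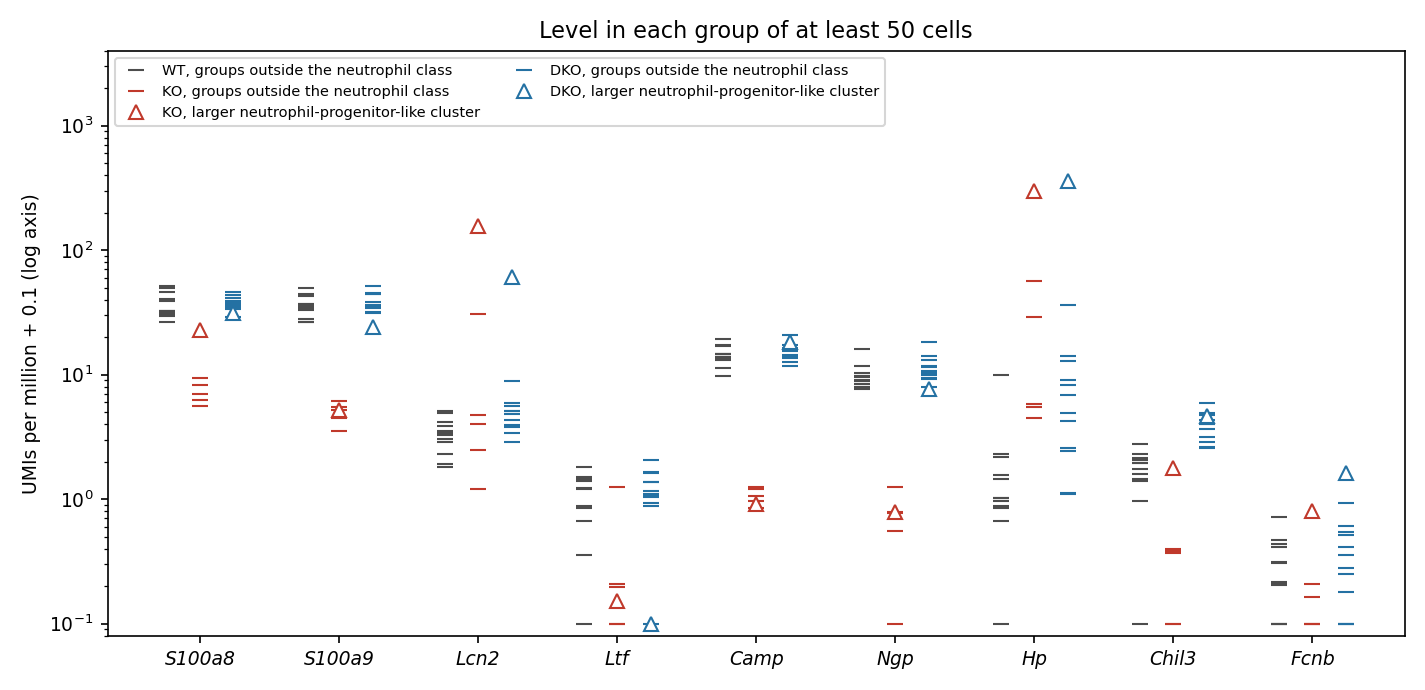
CPM plus 0.1 (log axis) of the 9 genes in each group of at least 50 cells, by library. Dashes are groups outside the neutrophil class and triangles the larger neutrophil-progenitor-like cluster in KO and DKO. The dashes of Camp lie between 9.71 and 20.6 in WT and DKO and between 0.751 and 1.15 in KO, and the triangles of Hp, at 299.8 and 359.5, lie above all its dashes.

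With the neutrophil class left out, the order of the libraries turned for 7 genes. S100a8 in the remaining cells stood at 35.8 (WT), 7.28 (KO) and 36.3 CPM (DKO), and S100a9 at 35.3, 5.45 and 36.9. Camp was at 13.9, 0.964 and 14.5, and Ngp at 9.10, 0.681 and 10.9. Chil3 was at 1.81, 0.266 and 3.995. Ltf, at 0.952, 0.116 and 1.10, and Fcnb, at 0.235, 0.0665 and 0.2497, rest on few UMIs. KO was the lowest library for each of these 7, whereas it was the highest for all 9 genes over all cells. Of 5 measured genes, 2 were then higher in KO than in WT, Lcn2 and Hp, against 4.87% of 9111 genes, and 3 lower, S100a8, S100a9 and Camp, against 11.2%. In DKO over KO, 4 of 6 were higher (S100a8, S100a9, Camp and Ngp) against 12.2% of 9058 genes, and 2 lower (Hp and Lcn2) against 4.04%. In DKO over WT, 1 of 5 was higher, Hp, against 3.67% of 9208 genes, and 0 were lower, against 3.54%.

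With the 71 cells of the smaller cluster left out, KO was the lowest library for S100a8, S100a9, Camp, Ngp, Ltf and Chil3. Fcnb was then at 0.2455 (WT), 0.321 (KO) and 0.265 CPM (DKO), from 21, 32 and 29 UMIs. Its KO/WT ratio of 1.31 (0.731 to 2.39) and DKO/KO ratio of 0.825 (0.482 to 1.41) give no order. In KO over WT, 2 of 5 measured genes were then higher, Hp and Lcn2, against 7.69% of genes, and 3 lower, S100a8, S100a9 and Camp, against 16.9%. In DKO over KO, 4 of 6 were higher, against 18%, and 2 lower, against 6.31%. In DKO over WT, 1 of 5 was higher, against 3.58%, and 0 were lower, against 3.53%. With the 10 highest cells of each gene and library left out, 2 of 5 were higher in KO than in WT, against 7.81%, and 2 lower, S100a9 and Camp, against 17.5%. In DKO over KO, 3 of 6 were higher, against 18.5%, and 2 lower, against 6.27%. In DKO over WT, 1 of 5 was higher, against 3.71%, and 0 were lower, against 3.38%. S100a8 without its 10 highest cells was at 34.9 CPM (WT), 45.5 (KO) and 37.5 (DKO), within 1.5-fold in each pair.

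Some proportions of these transcripts were close in the low layer of WT and DKO and in the smaller KO cluster, and others differed. There were 0.656 Ngp UMIs per Camp UMI in WT cells outside the class (0.599 to 0.719), 0.748 in such DKO cells (0.693 to 0.807) and 0.691 in the smaller KO cluster (0.656 to 0.727). Ltf stood at 0.0687, 0.0758 and 0.0667 per Camp UMI in the same order. The intervals of both ratios in the smaller KO cluster overlapped those of the other two. In KO, however, 3 cells held 81.1% of Camp, 86.8% of Ngp and 95.2% of Ltf UMIs. Among the Camp-rich KO cells, 1 held 967 Ngp beside 1189 Camp UMIs and another 101 beside 356. The intervals in this paragraph do not cover differences between cells. Camp stood at 0.393 per S100a9 UMI in WT (0.367 to 0.420), 0.394 in DKO (0.371 to 0.417) and 0.244 in the smaller KO cluster (0.235 to 0.253). Lcn2 stood at 0.235 per Camp UMI (0.205 to 0.268), 0.372 (0.338 to 0.409) and 0.457 (0.431 to 0.485), so neither of these ratios overlapped between the layer and the KO cells. S100a8 stood at 1.01 per S100a9 UMI in WT (0.964 to 1.07), 0.983 in DKO (0.941 to 1.03) and 1.39 in the smaller KO cluster (1.36 to 1.42), again apart. The WT cells of the smaller cluster lay apart from the layer of WT, with 0.0178 Ngp UMIs per Camp UMI (0.00362 to 0.0528). Its DKO cells held 0.292 (0.106 to 0.698), an interval that just overlapped that of the DKO layer. These ratios rest on 169 and 24 Camp UMIs, and 1 WT cell held 154 of the 169. Lyz2, a lysozyme gene of myeloid cells outside the set, was also widespread, in 78.3% (WT), 68.7% (KO) and 89.3% (DKO) of cells. Whether RNA free in the cell suspension made up this layer was not tested.

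The smaller cluster showed the genes cell by cell. Its 46 KO cells held between 6 and 3921 S100a8 UMIs with a median of 81, and between 0 and 4004 S100a9 UMIs with a median of 11. Its 17 DKO cells held 0 to 631 S100a8 UMIs with a median of 116, and its 8 WT cells 9 to 444 with a median of 64. The ranges of the 3 libraries overlapped, and the highest KO cells lay far above any WT or DKO cell. All 32 cells with at least 100 S100a8 UMIs in the data lay in this cluster, 20 of them KO, 9 DKO and 3 WT.

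Camp, Ngp and Ltf were high in fewer of these cells. The median Camp count was 0 in each library, and the highest was 1189 in KO, 154 in WT and 11 in DKO. Of 6 cells with at least 100 Camp UMIs, 5 were KO and 1 was WT. In this cluster the highest Ngp counts were 967 in KO, 2 in WT and 2 in DKO. Outside the neutrophil class, single cells reached 6 Ngp UMIs in WT, 13 in DKO and 32 Camp UMIs in DKO. Cells with at least 10 Ltf UMIs numbered 3, all KO, with 154, 49 and 33. Those 3 cells, singled out after their values were seen, held 2, 25 and 6 UMIs of Elane against a median of 502.5, and 230, 246 and 173 of Lyz2 against a median of 2.5. They held 0, 1 and 0 UMIs of Kit and none of Ly6a, against medians of 1 and 0 in the 46 KO cells of this cluster. Ly6a was found in only 8 of those 46, so its absence does not set the 3 cells apart. The 3 cells were also the 3 highest in Lcn2, at 449, 483 and 238.

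High S100a8 came with little Camp in most cells, since 25 of the 32 S100a8-rich cells held under 10 Camp UMIs. Fcnb and Chil3 were found at 10 UMIs or more in 17 and 11 cells, all of them in the smaller cluster. Fcnb reached 36 UMIs in KO, 45 in WT and 44 in DKO. Chil3 reached 322 in KO, 171 in DKO and 2 in WT. The top Fcnb cells were thus close in the 3 libraries, while those of Chil3 were not. Lcn2 ranged from 1 to 483 in KO, 0 to 9 in DKO and 0 to 2 in WT, with medians of 8.5, 1 and 0. Hp had medians of 32 in KO, 35 in DKO and 9.5 in WT, with ranges of 7 to 96, 0 to 67 and 1 to 35 that overlapped. Of the 71 cells, 0 were among those with the highest doublet scores, which were left out in an alternative run. Since the scores gave no working call, this does not show that they are single cells.

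**Figure D5:**
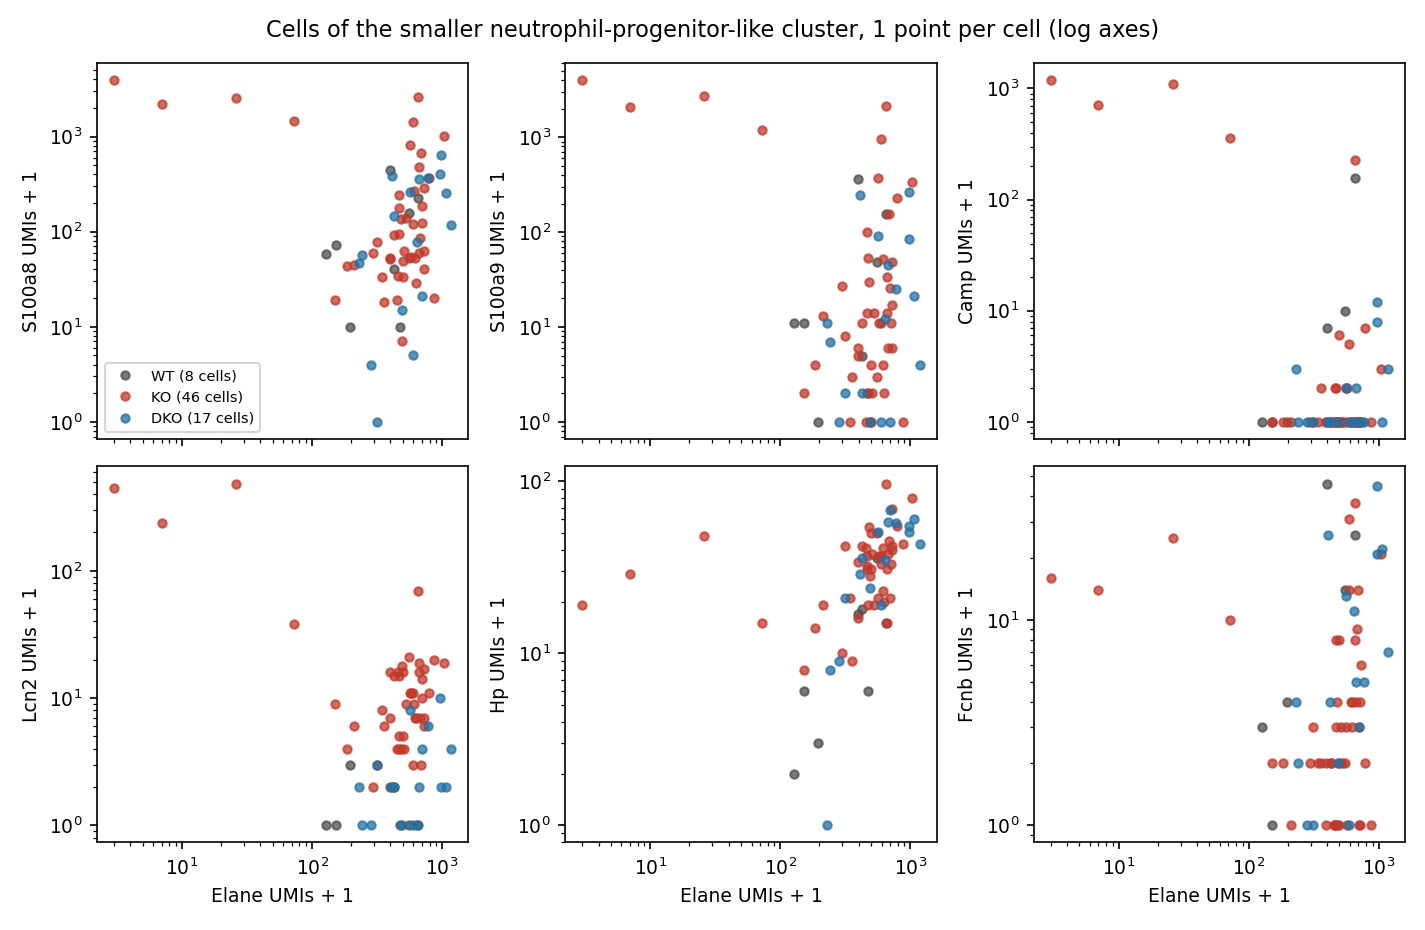
UMIs plus 1 of S100a8, S100a9, Camp, Lcn2, Hp and Fcnb (vertical, log axes) against Elane UMIs plus 1 (horizontal, log axis) in each of the 71 cells of the smaller neutrophil-progenitor-like cluster. The 3 KO cells at the left, with 2, 6 and 25 Elane UMIs, hold 1189, 706 and 1086 Camp UMIs and the 3 highest Lcn2 counts.

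Over the 19 clusters, each pooled over libraries, Hp and Lcn2 were closest to each other, and the other genes varied in how close they came to them. Pearson's r of log2(CPM + 1) was 0.993 to 0.996 between S100a9, Camp and Ngp, 0.976 between S100a8 and S100a9, 0.987 between S100a8 and Chil3, and 0.944 between Hp and Lcn2. Hp stood at 0.325 with Camp, 0.525 with S100a8 and 0.684 with Fcnb, and Lcn2 at 0.430, 0.642 and 0.782, so Fcnb was about as close to Lcn2 as to Camp (0.833). These points share libraries and the low layer, so the values are descriptions. The smaller neutrophil-progenitor-like cluster, 1 of the 19 points, held most KO UMIs of all the genes but Hp and Lcn2. How far the values rest on that point was not tested. The genes outside the set most like Hp were Anxa3 (0.970), Elane (0.959) and Trem3 (0.957), and most like Lcn2 were Trem3 (0.965), Msrb1 (0.964) and Elane (0.960). Scp2 came first for S100a9 (0.899), Camp (0.871) and Ngp (0.889), Prdx5 for S100a8 (0.914) and Fcnb (0.919), and Rnaset2b for Chil3 (0.933). For all 8 genes ranked, fewer than 2 of the 3 nearest recurred over 12 KO clusters alone or with Spearman's rho.

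Related gene lists, read the same way over all cells, differed only in part. Of 11 measured specific and gelatinase granule genes outside the set, 3 were higher in KO than in WT and 2 lower, with a median log2 ratio of 0.42, beside 7.77% and 17.1% of all genes. The count of lower genes is near that share. The oxidase subunit Cybb stood at a KO/WT ratio of 21.8 (17.0 to 28.3), the whey acidic protein gene Wfdc21 at 9.52 (8.36 to 10.9) and the protease inhibitor Slpi at 4.97 (4.64 to 5.32), while Lyz2 was at 0.583. In DKO over KO, 3 of 11 were lower and 1 higher, with a median of 0.27, beside 6.32% and 17.9% of all genes. In DKO over WT 4 of 9 were higher and 0 lower, beside 3.62% and 3.55%. Of 11 azurophil genes, 4 were higher in KO than in WT and 0 lower, with a median of 0.50, beside the same 7.77% and 17.1%. Elane was at 79.0, 1297 and 209 CPM in WT, KO and DKO, and the proteases Ctsg and Prtn3 and the peroxidase Mpo had KO/WT ratios of 9.07, 5.24 and 5.84. In DKO over KO, 4 of 11 azurophil genes were lower and 1 higher, and in DKO over WT 4 of 11 were higher and 0 lower, beside the shares just given for those pairs.

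The S100 genes other than calprotectin did not share its range between libraries. Of 6 measured, 0 were called in KO over WT, beside 7.77% of all genes higher and 17.1% lower, among them S100a10 at 0.718-fold and S100a1 at 1.42-fold. S100a6 was at 58.6, 48.2 and 119.7 CPM in WT, KO and DKO, a DKO/KO ratio of 2.48 (2.40 to 2.56). Of 3 measured cystatin genes, 1 was higher in KO than in WT (7.77% of all genes), Cst7 (4.10-fold), and Cstb and Cst3 were at 0.986 and 0.999 times WT. Of the relatives of Chil3 and Fcnb, 5 had a row and 0 reached the level minimum.

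Regulators of granule genes were mixed. Of 11 measured, 3 were higher in KO than in WT and 1 lower, beside 7.77% and 17.1% of all genes, so the lower count is under that share. Cebpe, a factor needed for specific granules, was at 2.85, 19.6 and 5.26 CPM in WT, KO and DKO. The KO/WT ratio was 2.76 for Cebpb (2.50 to 3.05) and 2.09 for Cebpa (1.995 to 2.19), and DKO lay 5.56-fold below KO for Cebpb. Nfkbiz, which encodes an NF-kB cofactor known to act at the Lcn2 gene, was at 27.5, 5.28 and 9.92 CPM, lowest in the library where Lcn2 was highest. It was among the leading genes of an unnamed cluster led by Zfp36 and Fos, which held 1368 WT, 20 KO and 49 DKO cells. Of 3 measured receptors of the encoded proteins, 2 were lower in KO than in WT, beside 17.1% of all genes, Ly96 at 0.601-fold and Itgam at 0.625-fold, and Bsg was at 1.36-fold.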

How the data were processed

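Single-cell 3′ libraries (Chromium v2) of sorted LSK cells were used, 1 per genotype. Per the submitters' processing notes, the tools were Cell Ranger, bcl2fastq and Seurat, with mm10 as the build. Versions and cell filters are not given in the sources used here. All values were computed from the table of raw UMI counts that the authors deposited, with 14721 genes and 21251 cells. Their normalized table was not used.

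Counts were summed per library or group and divided by the total (CPM). Levels carry exact Poisson, shares Clopper-Pearson and ratios exact conditional binomial 95% intervals. A count of 0 allows up to 3 counts, or 0.0273 to 0.0350 CPM of a library. Since reads are 3′ tags, counts do not scale with gene length, and levels are compared within a gene. Cells were clustered with scanpy 1.11.5 and Leiden at resolution 1 on 2000 variable genes, 30 principal components and 20 neighbours, leaving out the 9 genes and cell cycle, mitochondrial, ribosomal and sex-linked genes. A cluster was named where at least 3 of its top 15 genes by fold were markers of 1 list with a lead of 2, and CPM is given for groups of at least 50 cells. Scrublet called 0.285% of cells of a library at most, which is not a working call, and no cell was removed.

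Named genes were the 9 genes, from each list the up to 4 measured genes with the largest KO/WT ratio in either direction, and the 3 genes most like each of the 9 with at least 500 UMIs. The genes, lists and naming rule were chosen with earlier results of these data known. Positions came from GENCODE and promoter sequences from RefSeq. Other scalings (edgeR 4.0.16), thresholds, depths, cell filters and clusterings were tried, and the calculations were tested on simulated data.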

Additional observations from a re-analysis of the deposited data

How the results depend on the processing

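The counts of higher and lower genes depended on the neutrophil-progenitor-like cells. For S100a8, S100a9, Camp, Ngp and Chil3, KO/WT ratios without that class were 0.203, 0.154, 0.0695, 0.0749 and 0.147, and DKO/KO ratios 4.99, 6.77, 15.1, 15.9 and 15.03. Without the 10 top cells of each gene they were 0.302, 0.0661, 0.0764 and 0.498 for S100a9, Camp, Ngp and Chil3, and 3.52, 15.6, 15.3 and 4.58 in DKO/KO. The next 2 settings were chosen after seeing the data. Without the smaller cluster alone, KO/WT was 0.373, 0.150, 0.0651, 0.0747 and 0.454 for S100a8, S100a9, Camp, Ngp and Chil3, and DKO/KO 2.71, 6.94, 16.1, 15.9 and 4.86. Without the erythroid, B-lineage and neutrophil classes, KO/WT was 0.186, 0.142, 0.0672, 0.0730 and 0.143, and DKO/KO 5.30, 7.16, 15.02, 16.1 and 15.2. In each of these settings 2 measured genes were higher in KO than in WT and 2 lower in DKO than in KO. Lower in KO than in WT were 3, or 2 without the top cells, and higher in DKO than in KO 4, or 3 without the top cells. A fold of 4 left 4 higher in KO/WT and 2 lower in DKO/KO. In DKO/WT, 0 were higher at a mean of 20 CPM, 3 with no minimum and 3 without the 50 most abundant genes in the total. The other 69 counts stayed within 1.5 times. With KO cells clustered alone, 406 cells were neutrophil-progenitor-like, with S100a8 at 49.99 and Camp at 0.684 CPM, against 516.7 and 87.8 in the 1210 cells of the class here. The cells led by Wfdc21 (42) and by monocyte-dendritic markers (501) then lay outside it.

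No paired analysis was possible because each genotype has 1 library, and for the same reason leaving out a library was not an option. Depth limits Ltf and Fcnb, with 82 and 110 UMIs in WT.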
